A study of Mus musculus with 12 samples.

Results

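Thrombospondins are a small family of secreted matrix proteins, and their genes Thbs1, Thbs2, Thbs3 and Thbs4 were described here together with Cd36 and Cd47, which encode 2 cell surface receptors of the family. These 6 genes were taken from 22180 genes by their symbols. A gene with several probe sets would have been represented by the one with the highest mean over 12 arrays, but each of the 6 had 1 probe set of 1 symbol, so no measured value decided the choice of probe set. The members were thus chosen by symbol, and measured values would have selected only among probe sets. The family itself was taken up with results of these arrays known. The p values below therefore describe the fit across all probe sets and are not independent evidence about these genes.

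Thrombospondins bind calcium, matrix components and cell surface receptors, and they act on how cells attach and signal rather than as structural fibres. Thbs1 and Thbs2 encode trimers with type 1 repeats, the part through which they bind CD36 and restrain new vessel growth. Thbs3, Thbs4 and Comp encode the pentameric branch, which lacks these repeats. Thrombospondin-1 is best known for its release from platelets, for activating latent TGF-beta and for blocking nitric oxide signalling through CD47, and in the kidney it is known as a gene induced early after ischemia.

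Kidney RNA of 12 female B6 mice aged 8 to 12 weeks was measured, with 1 array per sample and 3 samples in each of 4 groups. WT mice carried the ERT2cre transgene, and HDAC2-/- mice carried it together with floxed HDAC2 alleles, so that tamoxifen, given to both genotypes at 100 mg/kg on 5 days with 7 days of recovery, deleted HDAC2 only in the second. Deletion was inducible in the whole body and was not limited to a renal cell type. In each genotype 3 kidneys were taken without ischemia and 3 were taken 4 h after 28 min of clamping of the left renal pedicle, after which the right kidney had been removed. The sources mention no sham operation, so ischemia and surgery cannot be told apart. The labels give the tissue as renal cortex, and the study's text gives it as whole kidney.

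Hdac2, the targeted gene, did not separate the genotypes on its probe set. Its log2 values were 7.90, 7.85 and 8.01 in WT and 7.83, 7.68 and 8.45 in HDAC2-/- kidneys, and 7.93, 8.17 and 7.94 in ischemic WT against 8.12, 7.95 and 8.32 in ischemic HDAC2-/- kidneys. Where its probes lie relative to the floxed exons is not given in the sources used here, so these values check no label, and the groups are named as labelled throughout. The study reported loss of the HDAC2 protein after tamoxifen, by Western blot and immunoperoxidase staining of kidneys. It does not say whether the mice of these arrays were among those stained or blotted. The highest Hdac2 value of all was that of HDAC2-/- replicate 3. The array medians lay between 5.62 and 5.76. Thbs2, Thbs3, Thbs4 and Comp lay not far above them, with means over the 12 arrays of 6.25, 6.33, 6.0 and 5.98. Thbs1, Cd36 and Cd47 had 10.17, 8.75 and 10.39. Proximal tubule markers averaged 12.14 to 12.63 over the arrays, podocyte markers 8.34 to 9.06, and medullary and loop markers, with Umod and Aqp2 among them, 9.87 to 10.73. Loop and collecting duct transcripts were thus present, which does not settle whether the tissue was cortex or whole kidney. Slc14a2, of the same list, had group means of 5.58 to 6.35. In RNA from whole tissue, fewer cells of a type and less RNA per cell cannot be told apart.

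Thbs1 was the member with the largest response and rose after ischemia in both genotypes. On the log2 scale of the normalized array signal its values were 9.64, 9.16 and 9.12 in WT and 11.79, 11.67 and 11.12 in ischemic WT kidneys. In HDAC2-/- kidneys they were 9.31, 9.15 and 8.49, and in ischemic HDAC2-/- kidneys 11.27, 10.72 and 10.63. All 6 ischemic arrays lay above all 6 arrays without ischemia, whatever the genotype.

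Compared to WT without ischemia, Thbs1 was 2.22 higher in ischemic WT (SE 0.25, 95% confidence interval 1.69 to 2.75), which is 4.66-fold (limma adjusted p = 0.000103). In HDAC2-/- kidneys the rise was 1.89 (1.36 to 2.42), or 3.71-fold (limma adjusted p = 0.000598). Both rises were called with every array left out in turn, at 2.09 to 2.42 in WT and 1.64 to 2.05 in HDAC2-/-. Over both genotypes the rise was 2.06 (limma adjusted p = 3.94e-06), and the exact permutation test within genotypes gave p = 0.005, the smallest that 3 arrays in each of the 4 groups allow. Within 1 genotype, 3 arrays against 3 allow no exact p under 0.1.

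The order of the Thbs1 levels was ischemic WT (11.53 ± 0.36, SD, n = 3), ischemic HDAC2-/- (10.87 ± 0.35), WT (9.31 ± 0.29) and HDAC2-/- (8.98 ± 0.43). Both steps between genotypes stayed within overlapping arrays. At 4 h the level in kidneys labelled HDAC2-/- was 0.65 below that in WT (SE 0.25, interval of the difference -1.19 to -0.12, limma adjusted p = 0.72), and without ischemia the difference was -0.32 (adjusted p = 1). The response in HDAC2-/- was smaller than that in WT by 0.33, with an interval of the difference from -1.08 to 0.42 (limma adjusted p = 0.957), so equal responses lay within the interval. It ran from -0.58 without HDAC2-/- replicate 3 to -0.17 without HDAC2-/- replicate 1, and was -0.64 with array weights (unadjusted p = 0.0439, adjusted p = 0.607). Leaving out the same 2 arrays moved the genotype difference without ischemia to -0.08 and -0.49.

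**Figure D1:**
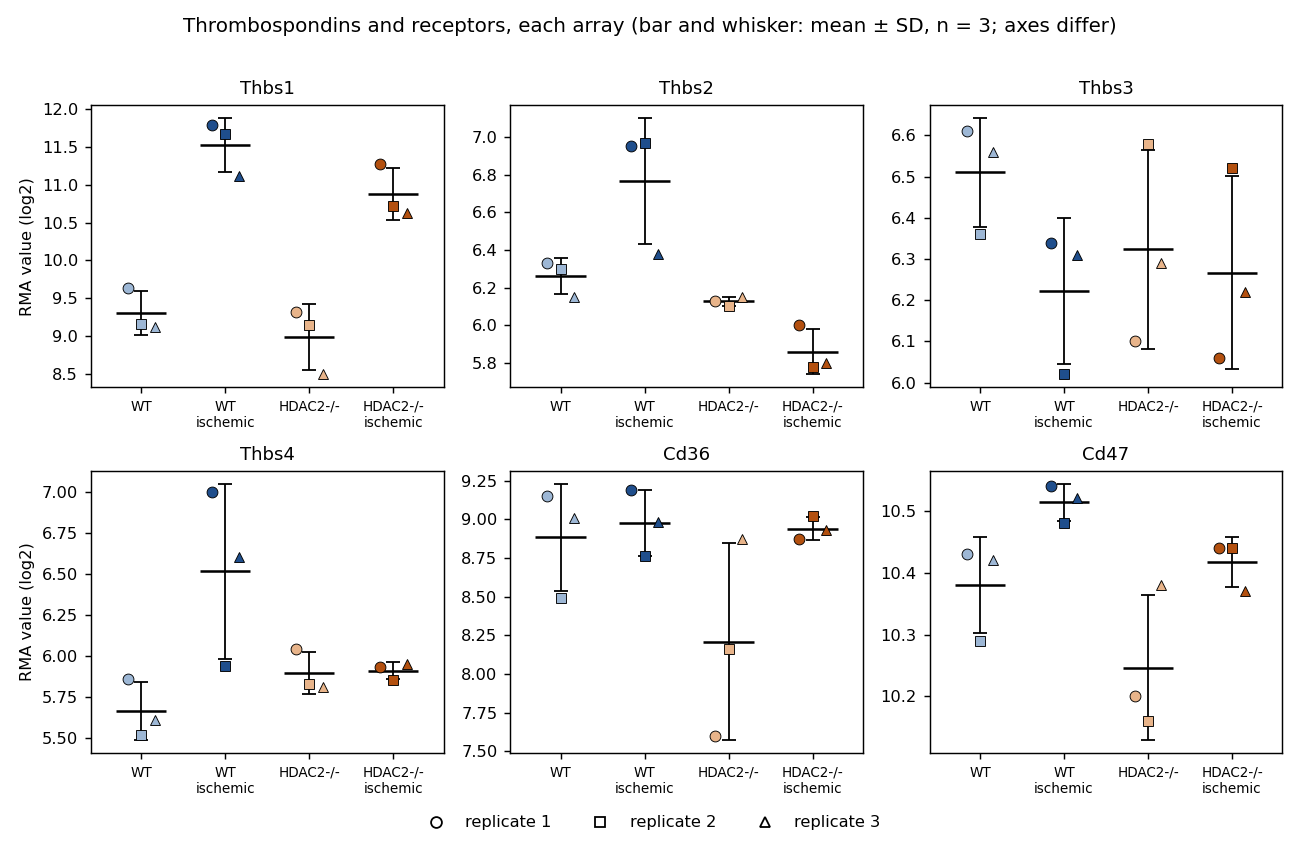
Log2 RMA value of each member on each array (points, shaped by replicate number) in the 4 groups, with the group mean and SD (n = 3) and a separate vertical axis for each gene. Thbs1 rises in both genotypes, from 9.31 to 11.53 in WT and from 8.98 to 10.87 in HDAC2-/-, while Thbs2 and Thbs4 are highest in ischemic WT.

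Platelets are the blood source of thrombospondin-1 protein, and their markers were therefore set beside Thbs1. The platelet list (6 of 8 genes measured) averaged 6.20 to 6.32 in WT, 6.02 to 6.88 in ischemic WT, 5.89 to 6.12 in HDAC2-/- and 6.10 to 6.45 in ischemic HDAC2-/-. None of the 6 genes was called by limma in either genotype after ischemia, and none had an unadjusted p under 0.05 there, while 2 of 6 did over both genotypes. Of all 34472 probe sets, 8648 had such a p in WT, 5829 in HDAC2-/- and 9844 over both genotypes. Ppbp, a platelet chemokine precursor, had differences of 0.61 in WT, 0.66 in HDAC2-/- and 0.63 over both (limma adjusted p = 0.259, 0.309 and 0.0645). Pf4, platelet factor 4, had 0.45, 0.57 and 0.51 (adjusted p = 0.412, 0.376 and 0.124). The part of platelets in the Thbs1 values was not tested.

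Thbs2, whose protein is an inhibitor of vessel growth made mainly by fibroblasts, was the member whose differences after ischemia had opposite signs in the genotypes without overlap. The log2 values were 6.33, 6.30 and 6.15 in WT and 6.95, 6.97 and 6.38 in ischemic WT. They were 6.13, 6.10 and 6.15 in HDAC2-/- and 6.0, 5.78 and 5.80 in ischemic HDAC2-/-. In WT every ischemic array lay above every array without ischemia, and in HDAC2-/- every ischemic array lay below. Among all probe sets, 0.0841% were separated in these directions in both genotypes.

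In WT the difference was 0.51 (SE 0.16, interval 0.17 to 0.85), or 1.42-fold higher, and it passed the threshold narrowly (limma adjusted p = 0.0481). The call was lost when any of 10 of the 12 arrays was left out, all but ischemic WT replicate 3 and HDAC2-/- replicate 3, with differences of 0.40 to 0.70 and adjusted p between 0.0055 and 0.17. It was also lost under 5 of 9 other settings, the scaling of the arrays among them. In HDAC2-/- the difference of -0.27 (-0.61 to 0.07) was not called (limma adjusted p = 0.452).

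Counts over the 6 members were read against those over all probe sets. After ischemia in WT, 3 of the 6 members were called, Thbs1, Thbs2 and Thbs4, all higher, where 13.7% of all 34472 probe sets were called, with 6.55% called higher. In HDAC2-/- only Thbs1 was called, where 4.91% of probe sets were, with 2.94% called higher. Over both genotypes Thbs1 alone was called, against 18.4% of probe sets, with 8.52% called higher. In WT the arrays of 5 members did not overlap between the states, Thbs1, Thbs2, Thbs4 and Cd47 upward and Thbs3 downward, as did those of 28.3% of probe sets (13% upward, 15.3% downward). In HDAC2-/- this held for Thbs1 upward and Thbs2 downward, and for 20.1% of probe sets (9.91% upward, 10.2% downward).

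At 4 h after ischemia, Thbs2 was lower in kidneys labelled HDAC2-/- than in WT on every array, 5.78 to 6.0 against 6.38 to 6.97. The difference was -0.91 (SE 0.16, interval -1.25 to -0.57), 1.87-fold, and its unadjusted p of 5.38e-05 ranked 4 among 34472 probe sets. After adjustment over all probe sets it was not called (limma adjusted p = 0.464), and no probe set was (0%), while 6.59% had an unadjusted p under 0.05 and the arrays of 10.1% did not overlap (4.08% lower in HDAC2-/-). Without ischemia the genotypes differed by -0.13 (-0.47 to 0.21), the arrays met at 6.15, and 0% of probe sets were called, while the arrays of 7.62% did not overlap. Among all 34472 probe sets, 2.38% had an unadjusted p under 0.05 in that comparison.

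The levels of Thbs2 thus ran from ischemic WT (6.77 ± 0.34) through WT (6.26 ± 0.10) and HDAC2-/- (6.13 ± 0.03) to ischemic HDAC2-/- (5.86 ± 0.12). Only the middle pair overlapped. The response in HDAC2-/- minus that in WT was -0.77 (SE 0.22, interval -1.25 to -0.29, unadjusted p = 0.00392), and it was not called (limma adjusted p = 0.956), nor was any probe set (0%, with 4.19% at an unadjusted p under 0.05). With each array left out the difference at 4 h ran from -1.10 to -0.80 and that of the responses from -0.97 to -0.67, without a call.

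Between the labelled genotypes, limma called none of the 6 members in either state, over both states or in the difference of the responses, where 0% of probe sets were called in each. At 4 h an unadjusted p under 0.05 was found for 3 members, Thbs1, Thbs2 and Thbs4, all lower in HDAC2-/-, and for 6.59% of all probe sets. The arrays of 2 members, Thbs2 and Cd47, did not overlap, both lower, and neither did those of 10.1% of probe sets (4.08% lower). Without ischemia 1 member, Cd36, had such a p, as did 2.38% of probe sets. No member was separated there, where 7.62% of probe sets were. The difference of the responses had such a p for Thbs2 and Thbs4, and for 4.19% of probe sets. Over both states Thbs2 differed by -0.52 (SE 0.11, interval -0.76 to -0.28, limma adjusted p = 0.459), and the exact permutation test within states gave p = 0.01.

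Fibroblasts and pericytes are a main source of Thbs2 in tissue, and their markers were therefore set beside it. The mean of 7 markers was 8.57 to 8.94 in WT and 8.15 to 8.22 in HDAC2-/-, and 8.08 to 9.06 in ischemic WT against 7.94 to 8.14 in ischemic HDAC2-/-. At 4 h, 6 of the 7 were lower in HDAC2-/- with a median of -0.48, none called by limma and 3 with an unadjusted p under 0.05. Without ischemia all 7 were lower with a median of -0.51, none called and 4 with such a p. The shares of all probe sets with such a p were 6.59% at 4 h and 2.38% without ischemia. Thbs2 differed by -0.13 without ischemia. Their part in the Thbs2 difference was not tested.

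The promoters of Thbs2 and Thbs4 are shown because these were the members called after ischemia in WT and not in HDAC2-/-. Each runs 5′ to 3′ over 300 bases, 250 before and 50 after the RefSeq start site in GRCm38.p6, for Thbs2 at chr17:14694213-14694512 and for Thbs4 at chr13:92794769-92795068, both on the minus strand. Capitals mark the TATA box TATAAA, the CCAAT box and the GC box GGGCGG, read on either strand.
Thbs2: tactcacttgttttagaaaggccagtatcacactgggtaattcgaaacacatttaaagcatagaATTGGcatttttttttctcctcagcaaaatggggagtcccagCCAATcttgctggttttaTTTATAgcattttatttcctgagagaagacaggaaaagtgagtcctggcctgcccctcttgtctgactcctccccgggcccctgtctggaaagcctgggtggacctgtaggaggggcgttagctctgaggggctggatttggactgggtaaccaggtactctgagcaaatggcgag
Thbs4: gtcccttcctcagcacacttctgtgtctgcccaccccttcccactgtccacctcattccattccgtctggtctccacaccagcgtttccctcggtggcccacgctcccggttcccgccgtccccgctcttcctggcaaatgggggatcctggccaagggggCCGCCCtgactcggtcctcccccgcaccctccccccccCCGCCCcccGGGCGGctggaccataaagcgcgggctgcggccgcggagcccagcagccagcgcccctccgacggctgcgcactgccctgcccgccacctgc
The Thbs2 window held TATAAA in reverse 126 bases before the start and CCAAT boxes at 186 and 144, and no GC box. The Thbs4 window held GC boxes at 89, 51 and 42 bases before the start and neither of the other boxes. Of 32851 mouse promoter windows of this length, 13.6% held TATAAA, 37.4% CCAAT and 35.7% GGGCGG. Promoter entries matched 5 of the 6 members, without Thbs1. No AP-1 motif TGANTCA, found in 7.81% of all windows, and no CArG box of serum response factor, found in 1.63%, matched in the windows of these 5. A match is a description of the letters and not a binding site, and a missing match concerns these windows only.

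Thbs4, a pentameric thrombospondin known from muscle, tendon and injured tissue, rose after ischemia in WT, while its values in HDAC2-/- kidneys with and without ischemia overlapped. Its log2 values were 5.86, 5.52 and 5.61 in WT and 7.00, 5.94 and 6.60 in ischemic WT. In HDAC2-/- they were 6.04, 5.83 and 5.81, and in ischemic HDAC2-/- 5.93, 5.85 and 5.95. The ischemic WT arrays spread widely and all lay above WT, with replicate 2 close to the highest WT array. The WT values lay around the array medians of 5.62 to 5.76, near the middle of all probe sets.

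The difference in WT was 0.85 (SE 0.21, interval 0.40 to 1.30), or 1.80-fold (limma adjusted p = 0.0152). It was 0.61 without ischemic WT replicate 1 (adjusted p = 0.0633) and 0.78 without WT replicate 2 (adjusted p = 0.0704), and neither was called. In HDAC2-/- the difference was 0.02 (-0.43 to 0.47). The responses differed by -0.83 (-1.47 to -0.20, unadjusted p = 0.0142), which was not called (limma adjusted p = 0.956), so the call in 1 genotype does not show a difference between them.

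By level, Thbs4 ran from ischemic WT (6.51 ± 0.54) through ischemic HDAC2-/- (5.91 ± 0.05) and HDAC2-/- (5.89 ± 0.13) to WT (5.66 ± 0.18). Ischemic WT overlapped ischemic HDAC2-/- through its replicate 2, and the 3 lower groups overlapped their neighbours. At 4 h the kidneys labelled HDAC2-/- were 0.60 lower (interval of the difference -1.05 to -0.15, limma adjusted p = 0.713). This difference moved from -0.89 without ischemic WT replicate 2 to -0.36 without ischemic WT replicate 1.

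Several marker lists had the same order as Thbs4 across the 3 ischemic WT arrays. Replicates 1, 2 and 3 had 7.00, 5.94 and 6.60 for Thbs4, 7.43, 6.28 and 6.82 for the mean of 7 fat cell markers, and 8.43, 7.54 and 7.84 for 7 macrophage markers. The platelet list (6.88, 6.02 and 6.39), the fibroblast list (9.06, 8.08 and 8.28) and the endothelial list (9.33, 9.25 and 9.30) had this order too. The neutrophil list did not (6.46, 5.50 and 6.87), nor did the smooth muscle, podocyte, proximal tubule, and medullary and loop lists. Cd36, Cd47 and Thbs3 also had this order, so it was not particular to Thbs4 or to these cells. In ischemic HDAC2-/- the fat cell list lay between 6.23 and 6.40 and the neutrophil list between 5.78 and 6.59. Of the fat cell markers Adipoq, adiponectin, had group means of 4.28 in WT, 4.30 in ischemic WT, 4.36 in HDAC2-/- and 4.34 in ischemic HDAC2-/-, and Fabp4, which endothelium also makes, was the marker called in both genotypes. The part of these cells in the Thbs4 values was not tested.

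**Figure D2:**
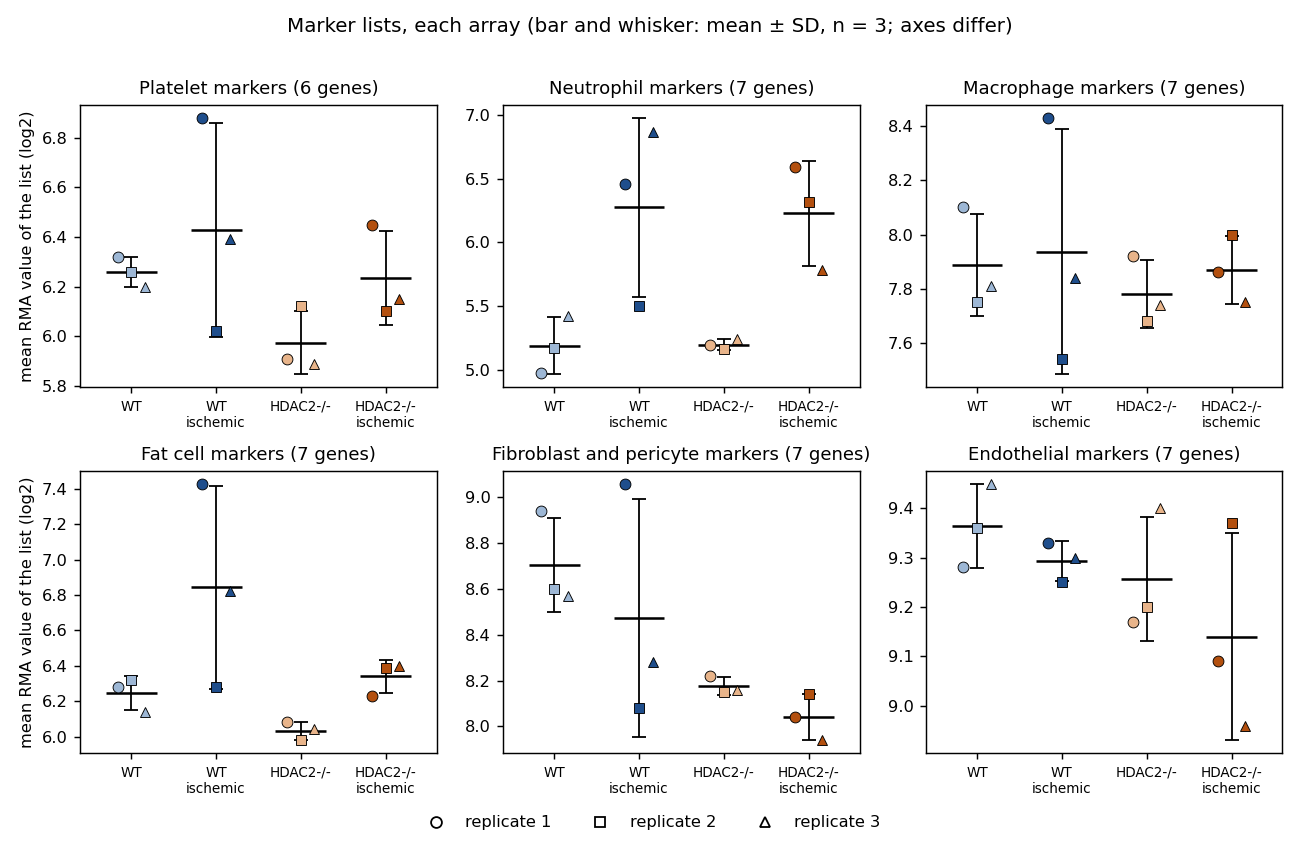
Mean log2 RMA value of 6 marker lists on each array (points, shaped by replicate number) in the 4 groups, with the group mean and SD (n = 3) and separate vertical axes. Neutrophil markers are higher after ischemia in both genotypes, and ischemic WT replicate 1 is the highest array for platelet, macrophage, fat cell and fibroblast markers.

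Thbs3, which encodes a thrombospondin of cartilage and bone, was not called in any comparison. Its log2 values were 6.61, 6.36 and 6.56 in WT, 6.34, 6.02 and 6.31 in ischemic WT, 6.10, 6.58 and 6.29 in HDAC2-/- and 6.06, 6.52 and 6.22 in ischemic HDAC2-/-. Ischemic WT arrays all lay below WT arrays, with a difference of -0.29 in the mean (SE 0.17, interval -0.64 to 0.07, limma adjusted p = 0.325), and the HDAC2-/- arrays with and without ischemia overlapped (-0.06, -0.41 to 0.30). A predicted gene, LOC115489723, overlaps Thbs3 in the annotation.

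Comp, the remaining thrombospondin, encodes cartilage oligomeric matrix protein. Its group means were 6.0 ± 0.19 in WT, 5.85 ± 0.12 in ischemic WT, 5.98 ± 0.17 in HDAC2-/- and 6.08 ± 0.17 in ischemic HDAC2-/-. The arrays of all 4 groups overlapped, and its difference in WT was -0.14 (-0.46 to 0.18, limma adjusted p = 0.635).

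**Figure D3:**
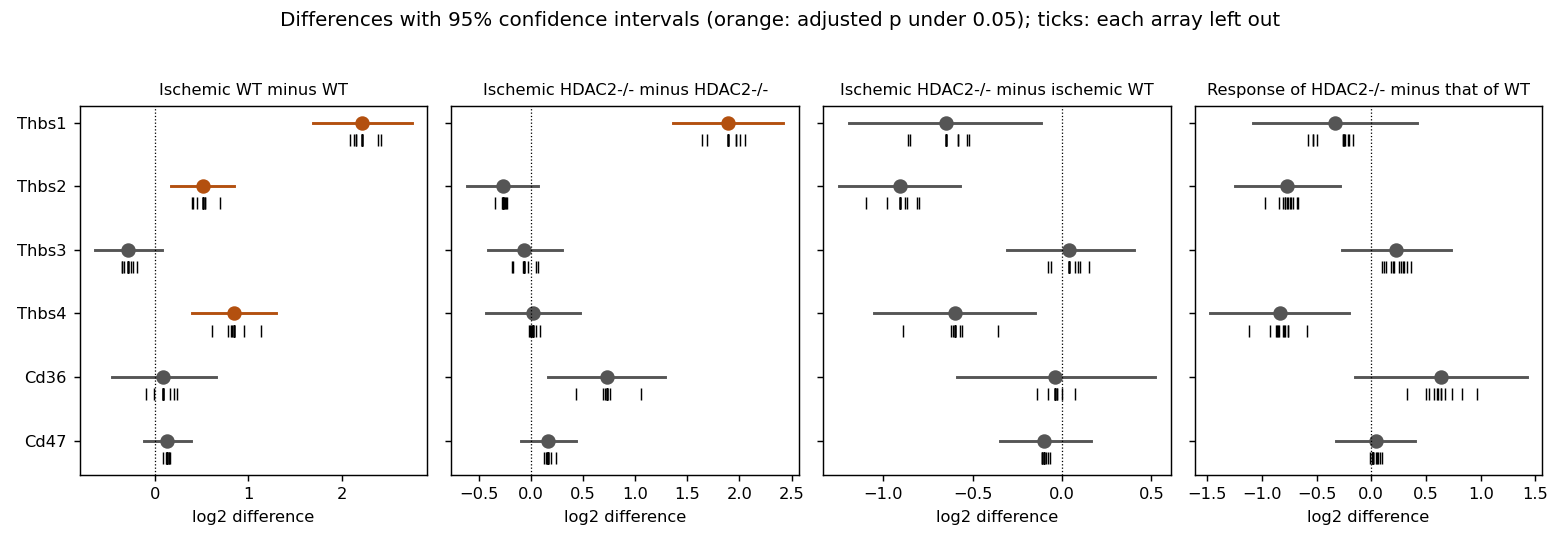
Log2 differences of the 6 members with 95% confidence intervals from limma (dots and bars, orange where the adjusted p was under 0.05) in 4 comparisons with separate horizontal axes, and the difference with each array left out (ticks). Thbs2 and Thbs4 are positive in WT (0.51 and 0.85), near or below 0 in HDAC2-/- (-0.27 and 0.02), and negative at 4 h between genotypes (-0.91 and -0.60).

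Cd36, the scavenger and fatty acid receptor that binds the type 1 repeats of Thbs1 and Thbs2, was lowest in HDAC2-/- kidneys without ischemia. It measured 9.15, 8.49 and 9.01 in WT, 9.19, 8.76 and 8.98 in ischemic WT, 7.60, 8.16 and 8.87 in HDAC2-/- and 8.87, 9.02 and 8.93 in ischemic HDAC2-/-. The HDAC2-/- arrays without ischemia spread over the widest range of the 4 groups, and replicate 3 lay with the other groups. Ischemic HDAC2-/- (8.94 ± 0.08), ischemic WT (8.98 ± 0.22) and WT (8.88 ± 0.35) could not be ordered beyond their spread, and HDAC2-/- followed at 8.21 ± 0.64.

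After ischemia the Cd36 difference in HDAC2-/- was 0.73 (SE 0.26, interval 0.17 to 1.29), or 1.66-fold, and was not called (limma adjusted p = 0.145). Without HDAC2-/- replicate 3 it was 1.06 and called (adjusted p = 0.0101), and in that fit Cd36 was also called over both genotypes. Without HDAC2-/- replicate 1 it was 0.43 (adjusted p = 0.505). HDAC2-/- replicate 3 had the highest Hdac2 value, which checks no label, and a link of that value to Cd36 was not tested. Leaving out replicate 3 also raised the calls among all probe sets after ischemia in HDAC2-/-, from 1013 higher and 678 lower to 1477 and 1371. The calls after ischemia in WT, a comparison without this array, rose too, from 2258 and 2472 to 2544 and 2874. The reason was not tested. In WT the Cd36 difference was 0.09 (-0.46 to 0.65). Between the labelled genotypes it was -0.67 without ischemia (unadjusted p = 0.0212, limma adjusted p = 1) and -0.04 at 4 h (-0.59 to 0.52). The first ran from -1.0 without HDAC2-/- replicate 3 to -0.37 without HDAC2-/- replicate 1 (unadjusted p = 0.141).

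Cd47, the receptor through which thrombospondin-1 limits nitric oxide signalling, varied little. Its log2 values were 10.43, 10.29 and 10.42 in WT and 10.54, 10.48 and 10.52 in ischemic WT. In HDAC2-/- they were 10.20, 10.16 and 10.38, and in ischemic HDAC2-/- 10.44, 10.44 and 10.37. The ischemic WT arrays lay above those of WT and above those of ischemic HDAC2-/-, and the other neighbouring groups overlapped.

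The Cd47 differences after ischemia were 0.13 in WT (-0.12 to 0.39) and 0.17 in HDAC2-/- (-0.09 to 0.43). Over both genotypes the difference was 0.15 (interval -0.03 to 0.33, limma adjusted p = 0.268), while the exact permutation test within genotypes gave p = 0.01, unadjusted, as 1 of 12 such tests over the members. At 4 h the labelled genotypes differed by -0.10 (-0.35 to 0.16, limma adjusted p = 0.9). A predicted gene, Gm4633, overlaps Cd47 in the annotation.

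Of 14 receptors and partners, 4 rose and none fell in ischemic WT, and 2 rose in ischemic HDAC2-/-. Among all probe sets, 6.55% were called higher in WT and 2.94% in HDAC2-/-. The medians of the list were 0.20 and 0.26 against -0.02 and -0.01 over all probe sets. Itgb3, the beta chain of the vitronectin receptor and of the platelet fibrinogen receptor, rose by 0.70 in WT and 0.94 in HDAC2-/-, and Itgb1, the common beta chain, by 0.79 and 0.83. Itga6, a laminin receptor chain, rose by 1.56 in WT and measured 0.76 in HDAC2-/- (limma adjusted p = 0.0672). Itgav rose by 1.32 in WT and measured 0.67 in HDAC2-/- (adjusted p = 0.172). Over both genotypes 5 of the 14 rose and 1 fell, where 18.4% of all probe sets were called, with 8.52% called higher. The risers were the 4 integrin chains above and Sdc1, a heparan sulfate proteoglycan (0.38, limma adjusted p = 0.0368). The gene that fell was Sirpa, the counter-receptor of CD47 on myeloid cells, with -0.49 (adjusted p = 0.0122). None of the 14 was called between genotypes.

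ADAMTS proteases share the type 1 repeat with Thbs1 and Thbs2, and their genes were called in both directions. Of 18 measured, 3 rose and 4 fell in ischemic WT, and 3 rose and 3 fell in ischemic HDAC2-/-, with medians of -0.02 and -0.04. Among all probe sets, 13.7% were called in WT and 4.91% in HDAC2-/-. Adamts1, a proteoglycan-cleaving protease that also restrains vessel growth, rose by 2.69 in WT and 2.35 in HDAC2-/-. Adamts4, an aggrecanase, rose by 1.66 and 1.53, and Adamts9 by 1.21 and 0.79. Adamts7, which cleaves Comp, had differences of -1.01 and -0.94, both called, and Adamts5, another aggrecanase, -1.33 and -0.86, also both called. The rise of Adamts1 and the falls of Adamts5 and Adamts7 thus appeared in both genotypes, as the rise of Thbs1 did.

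**Figure D4:**
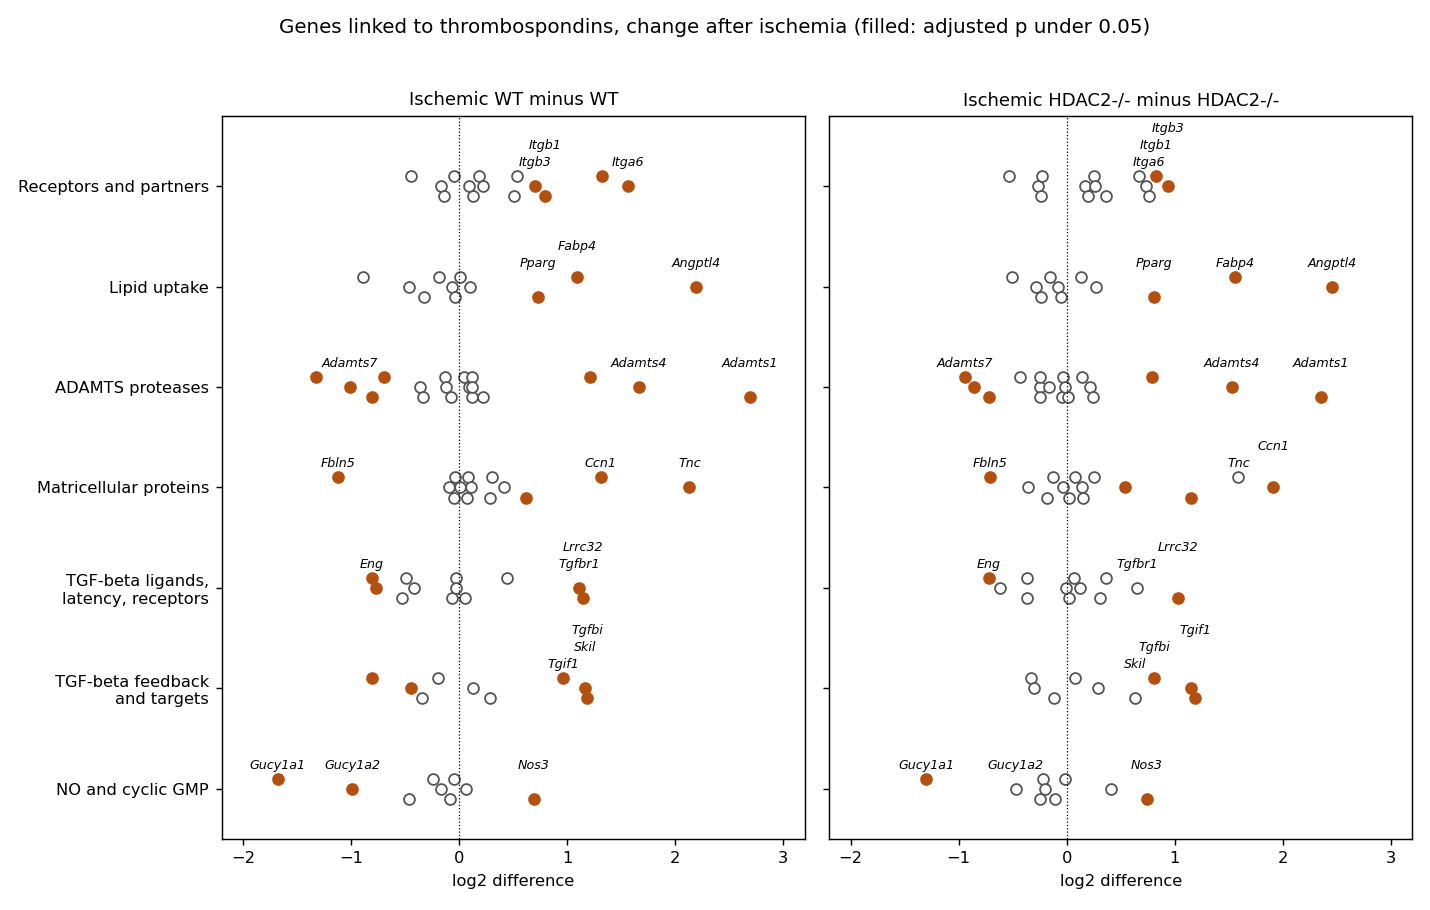
Log2 difference after ischemia (horizontal axis) of each measured gene in 7 lists linked to thrombospondins, in WT (left) and HDAC2-/- (right), filled where the limma adjusted p was under 0.05, with up to 3 genes per list named. Adamts1 (2.69 and 2.35) and Angptl4 (2.19 and 2.46) lie far to the right in both genotypes, and Gucy1a1 (-1.68 and -1.30) far to the left.

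Other matricellular proteins, which like thrombospondins signal from the matrix, had genes called in both directions after ischemia. Of 14 measured, 3 rose, 1 fell and 10 were not called in each genotype, beside 13.7% of all probe sets called in WT and 4.91% in HDAC2-/-. The medians of the list were 0.10 and 0.11. Ccn1, an integrin ligand of the CCN family, rose by 1.31 in WT and 1.91 in HDAC2-/-, and Ccn4 by 0.62 and 0.54. Tnc, tenascin-C, rose by 2.13 in WT and measured 1.59 in HDAC2-/- (limma adjusted p = 0.0612), and Ccn2, connective tissue growth factor, measured 0.28 in WT (adjusted p = 0.487) and rose by 1.15 in HDAC2-/-. Fbln5, an elastic fibre protein, fell in both, with differences of -1.12 and -0.71. The difference between the responses was not called for Tnc (-0.55) or Ccn2 (0.87, adjusted p = 0.956).

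Thrombospondin-1 activates latent TGF-beta, and genes on both sides of that step were counted. Of 12 ligands, latency proteins and receptors, 2 rose and 2 fell in ischemic WT and 1 rose and 1 fell in ischemic HDAC2-/-, with medians of -0.05 and 0.04. The shares of all probe sets called were 13.7% in WT and 4.91% in HDAC2-/-. None of the ligand genes Tgfb1, Tgfb2 and Tgfb3 was called (-0.03, -0.53 and -0.03 in WT). Lrrc32, which holds latent TGF-beta at the cell surface, rose by 1.14 and 1.03, and Tgfbr1, the type I receptor, rose by 1.11 in WT and measured 0.65 in HDAC2-/- (limma adjusted p = 0.0982). Eng, an endothelial coreceptor, fell in both, with -0.81 and -0.72.

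Of 9 measured feedback and target genes of TGF-beta, 3 rose and 2 fell in ischemic WT and 3 rose in ischemic HDAC2-/-. Beside this, 13.7% of all probe sets were called in WT and 4.91% in HDAC2-/-. Tgfbi, a matrix protein named for its induction by TGF-beta, rose by 1.18 and 0.81, and Tgif1, a corepressor, by 0.96 and 1.19. Skil, another corepressor, rose by 1.16 in WT and measured 0.63 in HDAC2-/- (limma adjusted p = 0.0848). Smad6 and Bambi, which dampen BMP and TGF-beta signals, fell in WT, with -0.81 and -0.45. The list held risers and fallers in WT and had a median of 0.13.

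Nitric oxide acts through soluble guanylate cyclase, the step that CD47 ligation blocks. Of 9 genes of this pathway, 1 rose in each genotype, 2 fell in WT and 1 fell in HDAC2-/-, with medians of -0.17 and -0.20. Calls were made for 13.7% of all probe sets in WT and 4.91% in HDAC2-/-. Gucy1a1, the main alpha subunit of the cyclase, had differences of -1.68 in WT and -1.30 in HDAC2-/-, both called, and Gucy1a2 had -0.99 in WT (called) and -0.47 in HDAC2-/- (limma adjusted p = 0.136). Nos3, endothelial nitric oxide synthase, rose by 0.69 and 0.74. Endothelial markers averaged 9.25 to 9.45 over the arrays of both WT groups and 8.96 to 9.40 over those of both HDAC2-/- groups.

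Around Cd36, the list of lipid uptake held 3 genes that rose in both genotypes and none that fell in either. Called higher among all probe sets were 6.55% in WT and 2.94% in HDAC2-/-. Angptl4, an inhibitor of lipoprotein lipase, rose by 2.19 and 2.46, Fabp4, a fatty acid binding protein, by 1.09 and 1.56, and Pparg, a nuclear receptor that controls Cd36, by 0.73 and 0.81. The medians of the 11 measured genes were -0.04 and -0.05. Over both genotypes 1 of them fell, Slc27a1 (-0.70, limma adjusted p = 0.0246). Of the relatives of Cd36, Scarb1, the high-density lipoprotein receptor, fell over both genotypes (-0.30, limma adjusted p = 0.0351), and Scarb2, a lysosomal membrane protein, measured 0.26 (adjusted p = 0.115). None of the genes of these lists was called between the labelled genotypes in either state, where 0% of probe sets were called.

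Genes whose values most resembled those of a member were named by the Pearson correlation over the 12 arrays among 17989 genes, which share arrays and groups, so that these are descriptions. For Thbs1 they were Fgl2, Sting1 and Litaf (r = 0.986, 0.984 and 0.983), with 0.86, 0.84 and 0.84 after the group means were removed. For Thbs2 they were Ermp1, Zkscan5 and the interferon-induced Mx2 (0.929, 0.89 and 0.881). Thbs4 was most like Saa3, an acute phase protein, the myeloid lectin Clec4d and Creb3l3 (0.935, 0.93 and 0.929). For Cd36 they were Hs3st5, Slco1a6 and Sema3d (0.924, 0.893 and 0.887), for Cd47 Tspan8, Cp and Pdgfra (0.915, 0.909 and 0.909), and for Thbs3 Ppp1r3c, Sox11 and Axin2 (0.933, 0.87 and 0.837).

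Among the members themselves, Cd36 and Cd47 were the pair that varied together most over the 12 arrays (r = 0.86, and 0.83 within groups). Thbs1 and Thbs2 had r = 0.43 over all arrays and 0.64 within groups, and Thbs2 and Thbs4, both highest in ischemic WT, had 0.52 and -0.10. Within ischemic WT, replicate 2 was the lowest array for Thbs4 but, with replicate 1, a high one for Thbs2, and replicate 3 was the lowest for Thbs1 and Thbs2.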

How the data were processed

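The authors used Transcriptome Analysis Console 4.0 to normalize 12 GeneChip Mouse Gene 2.0 ST arrays by the RMA method (robust multiarray average) and deposited log2 values with 2 decimals, used here as deposited. Background and summarization settings are not given in the sources used here. The platform annotation gave 1 symbol for 23521 of 34472 probe sets and several for 1820, and did not list 9131. Neighbouring genes and promoter sequences were read from RefSeq tables of GRCm38.p6. Arrays give no read depth, and their number limits the precision. The study's supplement calls the 3 samples of a group independent replicates.

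limma 3.58.1 in R 4.3.3 was fitted with 1 mean per group over all 12 arrays and empirical Bayes moderation, as in the study's methods. Benjamini-Hochberg adjustment ran over all 34472 probe sets, and an adjusted p under 0.05 was a call. A two-sided exact permutation test was run for each member. Members and 19 gene lists (154 of 162 genes measured) were chosen with earlier results of these data known. Named were the members, Comp, up to 3 genes per list by the smallest p over both genotypes, and 3 genes of closest correlation per member. The genes correlated were those of 1 symbol, without Gm, Rik or LOC gene models and without olfactory or vomeronasal receptors. Adamts5, Adamts9, Itgav, Sirpa, Sdc1, Ccn2, Ccn4, Smad6, Bambi, Umod, Adipoq, Slc27a1 and the TGF-beta ligand genes were named after their values were seen. The fit was tested on simulated data. Alternatives were other scalings, filters, moderation, array weights, a replicate block, thresholds, and each array left out.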

Additional observations from a re-analysis of the deposited data

Results flagged for a closer look

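The response of Thbs2 to ischemia in HDAC2-/- minus that in WT was -0.77 on the log2 scale. It stood out because every ischemic WT array lay above the WT arrays (6.38 to 6.97 against 6.15 to 6.33) while every ischemic HDAC2-/- array lay below the HDAC2-/- arrays (5.78 to 6.0 against 6.10 to 6.15). The difference of the responses was tested in limma and was not called over all probe sets (unadjusted p = 0.00392, adjusted p = 0.956). Among 34472 probe sets, 29 (0.0841%) were separated higher in WT and lower in HDAC2-/- in this way.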

How the results depend on the processing

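The 6 members were refitted in 7 comparisons under each alternative. Over 504 values with 1 array left out, 478 kept their direction and their side of the threshold, and over 360 values under other settings 345 did. The rise of Thbs1 kept its call in both genotypes under all of them. After ischemia in WT the count of called members was 1 in place of 3 at an unadjusted p with at least 2-fold, without empirical Bayes moderation and with only the groups compared, and 1 to 3 with arrays left out. In HDAC2-/- it was 2 in place of 1 with array weights, which added Cd36, and 1 to 2 with arrays left out. Over both genotypes it was 2 in place of 1 with a mean of at least 5 and with probe sets of 1 symbol, where fewer probe sets were tested, 3 with array weights, and 1 to 2 with arrays left out. The causes of the other changes were not tested. The call of Thbs2 in WT was also lost with arrays centred on their medians (adjusted p = 0.073), quantile normalization (0.0508) and array weights (0.0506).

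Directions that turned all belonged to small differences without a call. With arrays left out, Thbs3 ran from -0.18 to 0.07 after ischemia in HDAC2-/- and from -0.08 to 0.15 between genotypes at 4 h, where array weights gave -0.02. Thbs4 after ischemia in HDAC2-/- ran from -0.02 to 0.09. Cd36 ran from -0.10 to 0.23 after ischemia in WT and from -0.14 to 0.07 between genotypes at 4 h. The response difference of Cd47 ran from -0.01 to 0.10 and was -0.02 with quantile normalization.

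Over all probe sets, replicate numbers did not pair the samples throughout. Same-numbered arrays of different groups correlated from -0.373 to 0.444 in their deviations from the group means, over 0.1 in 8 of 18 pairs. Thbs1, however, fell from replicate 1 to 2 to 3 in each of the 4 groups. The replicate block lowered its unadjusted limma p between genotypes at 4 h from 0.0199 to 0.000936, without a call (adjusted p = 0.5). With the replicate block the count over both genotypes was 2 in place of 1, with Thbs4 added, and no other count of called members changed. A fit with only the groups compared could not be made for the comparisons over both genotypes or states. With 3 arrays a group, only changes well beyond the median SE of 0.17 could be called.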

Other observations

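Markers of infiltrating and resident cells gave further values after ischemia. Over all probe sets, 13.7% were called in WT and 4.91% in HDAC2-/-, with 6.55% and 2.94% called higher. Of 7 neutrophil markers, 3 rose in each genotype, among them Retnlg, a neutrophil granule gene, by 2.28 in WT and 2.42 in HDAC2-/-, and S100a8, a calprotectin subunit, by 1.46 and 1.51. Of 7 macrophage markers, 2 rose in WT and 1 in HDAC2-/-, with the lysosomal Cd68 at 1.21 and 1.33, while the medians of the list were -0.34 and -0.12. Endothelial markers were called in both directions, with Cdh5, the adherens junction cadherin, at 0.75 and 0.85 and Tek, the angiopoietin receptor, at -0.81 and -0.87.

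Tagln, a smooth muscle actin-binding protein, was the called gene of 5 smooth muscle markers in each genotype (0.69 and 1.19), and Cldn4, a claudin of the collecting duct, that of 5 medullary and loop markers (2.41 and 1.91). No podocyte marker was called within a genotype, where 1 and 3 of 4 had an unadjusted p under 0.05, but Nphs1, Wt1 and Podxl were lower over both genotypes (-0.55, -0.32 and -0.50, limma adjusted p = 0.0127, 0.0324 and 0.0193). Of all 34472 probe sets, 8648 had such an unadjusted p in WT and 5829 in HDAC2-/-, and 18.4% were called over both genotypes. None of 7 proximal tubule markers was called in either genotype, and none had an unadjusted p under 0.05 there.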
